A study of Mus musculus with 8 samples.

Results

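Compact shared regions were stretches of the mouse genome in which every one of 8 H3K27ac libraries had a called peak and whose merged width was under 1500 bp. They were chosen by 2 measured properties. Peaks of the 8 lists were joined wherever 1 bp or more overlapped, which gave 33920 union regions, and those with a peak in all 8 libraries and a union width under 1500 bp were kept. This selected 3536 regions, which were 21.3% of the 16607 regions with a peak in all 8 libraries and 10.4% of all union regions. The other 13071 regions with a peak in all 8 libraries were at least 1500 bp wide and are called wide shared regions here. Presence in every library and a narrow union were therefore properties of the choice, and so was the upper bound on how far a peak of a compact region could extend. The order of regions by fold enrichment was not used in the choice, nor was any comparison between groups.

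The libraries came from 266-6 cells, a line of mouse pancreatic acinar cells, the cells that make digestive enzymes. The labels give 4 groups with duplicates in each. The group with knockdown and EGF received siRNA against Arid1a and then EGF at 40 ng/ml for 8 h. The EGF group received the non-targeting siRNA NT5 and the same EGF treatment. The knockdown group received siRNA against Arid1a and a vehicle of 0.1% BSA, and the control group received NT5 and vehicle. All groups shared siRNA transfection at 25 nM for 48 h and overnight serum starvation before EGF or vehicle. Knockdown names the siRNA given, since Arid1a itself was not analysed here. The labels name the siRNAs by the human symbol ARID1A and do not state whether they match the mouse gene, so the knockdown values compare siRNAs and not known levels of Arid1a. The duplicates are not stated to be separate cultures, so the p-values measure a spread between samples that could be technical. All cells were of 1 line, which limits them as a model of acinar tissue.

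H3K27ac, acetylation of lysine 27 of histone H3, is laid down by the acetyltransferases p300 and CBP and marks active promoters and enhancers. Narrow acetylated stretches typically flank a single regulatory element, whereas long ones span clustered elements or highly active genes. EGF binds its receptor and signals through the MAP kinase cascade to transcription factors of the ETS and AP-1 families, and acinar cells exposed to such signals can lose their secretory programme. Arid1a is a DNA-binding subunit of the BAF form of SWI/SNF, a complex that moves nucleosomes and is known to keep enhancers accessible. Positions are in build mm9 as deposited. An mm9 genome and annotation were not used here, so no region is tied to a gene, an exon, an intron or a promoter, and no sequence is shown.

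The authors' lists held 22030 to 23256 peaks in the 4 EGF-treated libraries, 26844 and 27558 in the knockdown libraries, and 22167 and 28281 in control replicates 1 and 2. Control replicate 1 therefore stood apart from its duplicate and held about as many peaks as an EGF-treated library. Read depth is unknown, so no counting interval is given. The 3 longest lists were those of both knockdown libraries and of control replicate 2. They had longer peaks in compact regions than the 5 others, as given below. Their median fold enrichment in compact regions was also higher, at 5.22 to 5.49 against 4.57 to 5.03. The part of list length in the results on length and on rank was not tested.

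The compact regions covered 4.18 Mb in all, or 8.89% of the union length of shared regions. Their union width ran from 339 to 1499 bp with a median of 1227 bp, and each of the 3536 held exactly 1 peak in every library. Of the wide shared regions, 2104 (16.1%) held more than 1 peak in some library. Presence was uneven among narrow regions, because 5721 of the 17974 union regions under 1500 bp had a peak in 1 library, 978 in 7 libraries and 3536 in all 8. All 8 libraries held a peak in 19.7% of these narrow union regions and in 82.0% of the 15946 wide ones. Each peak joined to a union can only keep or widen it, so the merging itself links width to the number of libraries.

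Most compact regions ranked in the lower part of the fold order, and a small number stood at its top. Fold is the enrichment over background that the authors' caller gave each peak. For each library the 16607 shared regions were ranked by fold, and the rank was written as a percentile, where 100 is the highest fold of that library. The mean percentile over the 8 libraries had a median of 36.0 among compact regions, against 53.6 among wide shared regions. A mean percentile of at least 75 was found in 315 compact regions (8.91%), against 26.0% of wide ones. At least 90 was reached by 64 compact regions (1.81%), against 8.35% of wide ones, and at least 99 by 4 compact regions. At the other end, 246 compact regions (6.96%) lay under the 10th percentile, against 3.65% of wide ones. The median percentile of compact regions was 38.3 and 37.8 with knockdown and EGF, 34.6 and 33.6 in the EGF libraries, 38.0 and 37.2 with knockdown, and 37.0 and 34.7 in control. No group therefore held the compact set as a whole far from its place in another. Across compact regions, mean covered length and mean percentile had a Pearson correlation of 0.331, a description over regions that share the same 8 libraries.

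**Figure D1:**
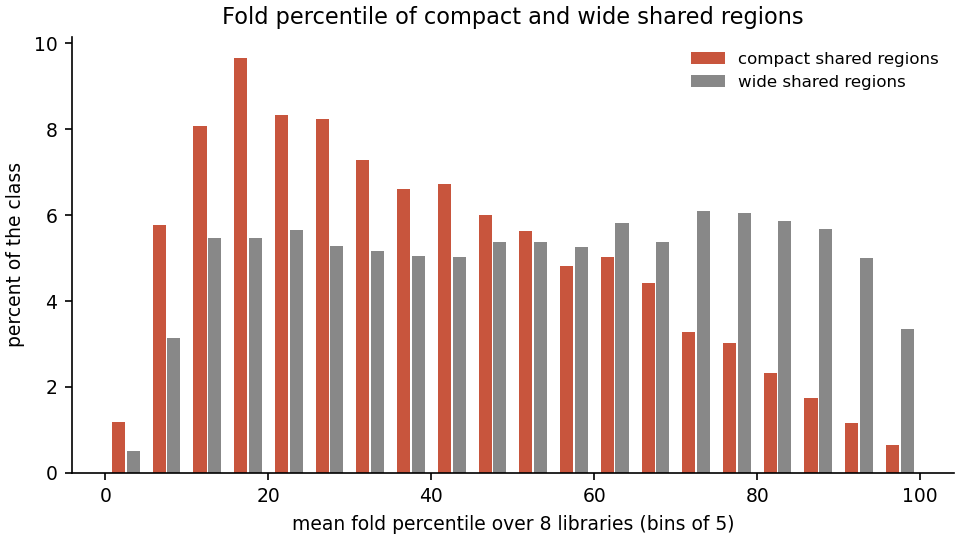
Distribution of the mean fold percentile over 8 libraries (horizontal axis, bins of 5) for the 3536 compact shared regions and the 13071 wide shared regions, as the percent of each class (vertical axis). Compact regions pile up at low percentiles, with a median of 36.0 against 53.6 for wide regions.

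The compact region with the highest mean percentile was 973 bp wide and lay at chr7:36587092-36588064. Its fold was 14.3 and 16.2 with EGF, against 12.4 and 16.6 in control, and 16.3 and 14.8 with knockdown and EGF, against 16 and 15.1 with knockdown. Its percentile was at least 99.48, so all 8 libraries placed it within the top 1% of shared regions. The next was 986 bp wide at chr6:83864319-83865304, with folds of 11.2 and 11.8 with EGF, against 10.8 and 13.3 in control, and 12.6 and 12.7 with knockdown and EGF, against 16.2 and 17.7 with knockdown. Folds there were higher in the knockdown libraries than in the other 6, while the percentile stayed between 99.1 and 99.9 in all 8. The median fold of compact regions was 5.46 and 5.49 with knockdown, against 4.61 and 5.22 in control. Places 3 to 5 were held by chr15:98492393-98493762 (percentile 98 to 99.9), chr6:48035413-48036613 (97.3 to 99.9) and chr5:3543760-3544620 (97.5 to 99.9). None of the 5 changed with EGF or with knockdown in either measure at the threshold used below, with adjusted p of at least 0.184 for EGF in limma.

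The lowest compact regions had a low fold in every library. At chr18:3008601-3009597 the fold was 3.05 and 3.34 with EGF, against 2.4 and 2.33 in control, and 2.62 and 2.71 with knockdown and EGF, against 2.32 and 2.3 with knockdown. That was the lowest fold of all shared regions in 6 of the 8 libraries, while its covered length ran from 211 to 992 bp. The next lowest were chr16:14444079-14445372, with folds of 3.02 to 3.46, and chr15:80034278-80035494, with folds of 3.04 to 3.7. Covered length at the last of these was 1071 and 757 bp with EGF, against 200 and 668 in control, and 905 and 269 with knockdown and EGF, against 207 and 445 with knockdown. Duplicates differed widely in length there, while the fold stayed low in all 8.

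Peak width within compact regions varied between libraries. The SD of covered length over the 8 libraries had a median of 184 bp and ran from 13.5 to 473 bp. In the median compact region the narrowest library covered 49.3% of the length of the widest. Bases covered in all 8 libraries had a median of 465 bp, or 41.1% of the union width. In 55 compact regions (1.56%) no base was covered in all 8 libraries, so their peaks joined only through one another. Regions of higher fold varied less, with a median SD of 147 bp among the 315 with a mean percentile of at least 75, against 223 bp among the 1169 under 25.

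The steadiest was a short region of 361 bp at chr13:51298131-51298491. Its covered length was 312 and 335 bp with EGF, against 335 and 352 in control, and 336 and 354 with knockdown and EGF, against 327 and 342 with knockdown. Fold percentile was not steady there, at 18.7 and 59.5 with EGF, against 30.3 and 45.2 in control, and 44.5 and 61 with knockdown and EGF, against 16.8 and 48.3 with knockdown. Replicate 2 ranked above replicate 1 in each of the 4 groups. The second was chr5:121055072-121055874, with 710 to 773 bp, and the fourth was chr14:19725861-19726338, with 259 to 342 bp. The third, chr6:56654156-56655056, kept its width while its rank moved with EGF. Covered length there was 731 to 811 bp over all libraries. Its fold percentile was 92.5 and 90.4 with EGF, against 60 and 62.1 in control, and 82.5 and 75.5 with knockdown and EGF, against 43.3 and 47.5 with knockdown. All 4 EGF-treated libraries lay above all 4 vehicle libraries, with a mean difference of 32 ± 3.72 percentile points (SE; limma adjusted p = 1.52e-04).

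The most variable width was at chr4:106812055-106813509, with 1358 and 1455 bp with EGF, against 200 and 508 in control, and 1171 and 1378 with knockdown and EGF, against 738 and 614 with knockdown. Every EGF-treated library covered more than every vehicle library. No base was covered in all libraries there, and the peaks of the control replicates did not overlap each other. The lengths compared therefore belong in part to different stretches. The second, chr18:77167772-77169186, had 265 and 849 bp with EGF, against 291 and 1085 in control, and 318 and 1093 with knockdown and EGF, against 1369 and 1315 with knockdown. Replicate 1 was the shorter in 3 of the 4 groups there, and the groups overlapped. The third, chr6:128805515-128806871, and the fourth, chr2:173562515-173563974, again differed between EGF and vehicle, in opposite directions, and are described with the EGF comparison.

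**Figure D2:**
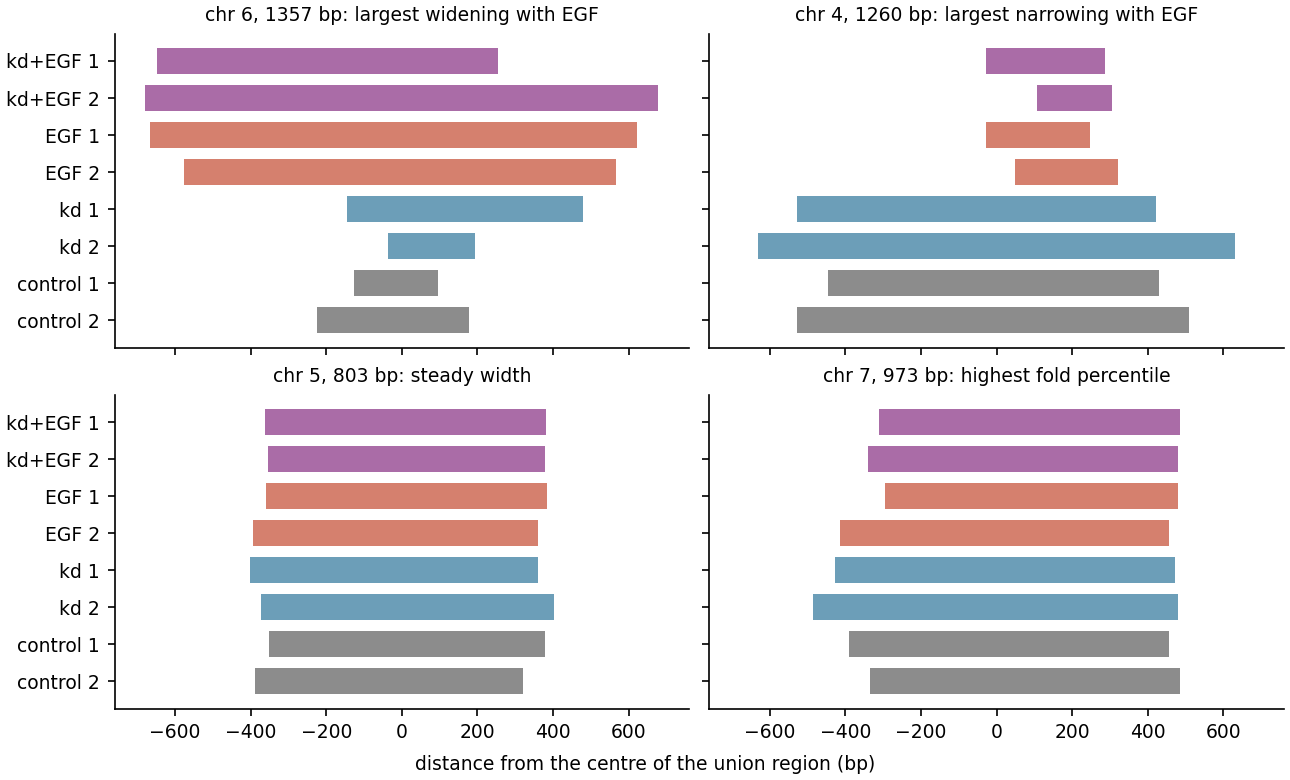
Extent of the peak in each library (bars, one per library, kd for siRNA against Arid1a) in 4 named compact regions, as distance in bp from the centre of the union region. In the upper panels EGF-treated libraries hold the longest bars of the chromosome 6 region and the shortest bars of the chromosome 4 region, and in the lower panels all bars are of similar length.

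Compact regions were shorter in EGF-treated than in vehicle libraries at the level of medians, but the first control library did not follow this. Median covered length was 748 and 795.5 bp with EGF, against 741 and 944.5 bp in control, and 785.5 and 829 bp with knockdown and EGF, against 974 and 995 bp with knockdown. Over both siRNAs this was 789.5 ± 33.3 bp with EGF and 913.6 ± 117 bp with vehicle (SD, n = 4 each). The lowest of the 8 medians was that of control replicate 1, so the groups overlapped. Control replicate 1 also held the shortest peak of all libraries in 1012 compact regions. Longer peaks can reflect more cells with the mark, more of it per cell or deeper sequencing, and these cannot be told apart here.

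**Figure D3:**
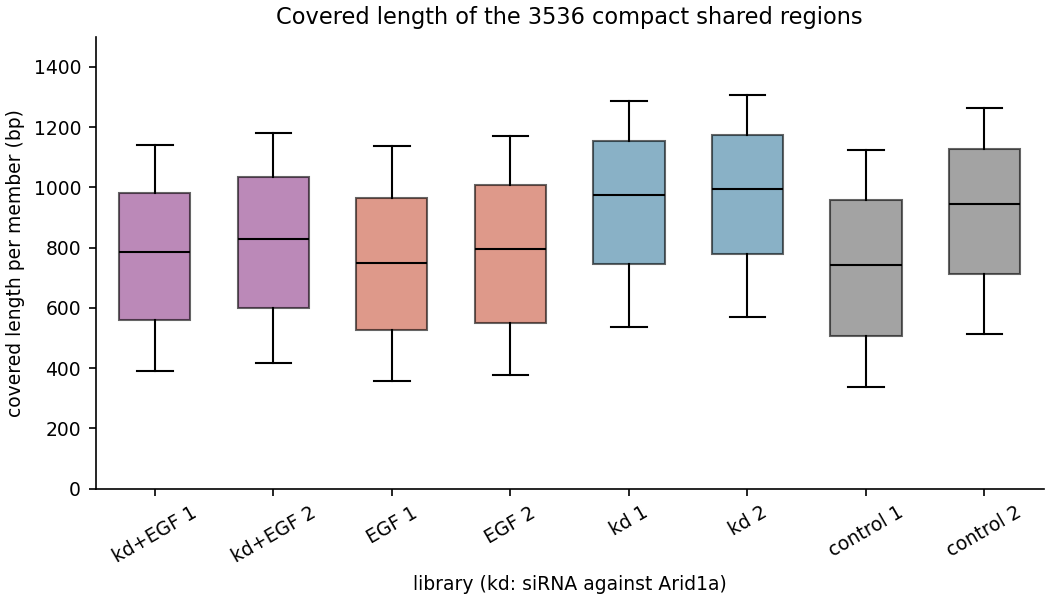
Covered length in bp (vertical axis) of the 3536 compact shared regions in each library (horizontal axis). Boxes span the quartiles with the median as a line, and whiskers the 10th to 90th percentiles; control replicate 1 has the lowest median, 741 bp, and knockdown replicate 2 the highest, 995 bp.

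In the peaks as deposited, edges lay further in with EGF than with vehicle on both sides of a compact region. The mean left edge lay 43.75 bp further in with EGF than with vehicle in the median compact region, and the mean right edge 45.75 bp further in. Both edges moved inward in 47.1% of compact regions, both outward in 11.4% and the 2 in opposite directions in 41.5%. Control replicate 1 went against this, since its edges were the furthest in of all libraries. Relative to the median edge over the 8 libraries, with negative values inward, the left and right edges lay at medians of −22.5 and −20 bp in EGF replicate 1, against −24.25 and −24.5 bp in control replicate 1. The direction of the EGF difference in length turned with the scaling, as given below. In wide shared regions the median inward shifts were larger, at 104.5 and 108.75 bp, and both edges moved inward in 57.9%. For Arid1a siRNA against non-targeting siRNA the median inward shift was −34.75 bp on the left and −33.6 bp on the right, which is outward. Both edges lay further out in 50.3% of compact regions. For wide shared regions the medians were −54.5 and −53.5 bp, and both edges lay further out in 47.6%. Over the 8 libraries the position of a single edge spanned a median of 314 bp on the left and 315 bp on the right. The span stayed within 100 bp for both edges in 9 compact regions (0.255%). In 217 (6.14%) one edge stayed within 100 bp while the other spanned more than 300 bp.

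For single regions, covered length was tested with limma on log2(covered bp + 200) over the 28146 regions that had peaks in 2 or more libraries. A region was called at a Benjamini-Hochberg adjusted p of at most 0.05, and effects are the mean over both states of the other factor. With EGF, 84 of the 3536 compact regions were shorter and 5 were longer, which is 2.38% and 0.141%. Over all regions tested 11.2% were shorter and 1.79% longer, and over wide shared regions 11% and 1.04%. The shares of compact regions lay below these, but the choice bounds both directions. The width limit bounds how far a compact region could lengthen. A peak in every library, of 200 bp or more, bounds how far it could shorten. Regions tested outside the shared set could lack a peak in some libraries. The lower shares therefore cannot be read as a trait of compact regions. Fitted over shared regions alone, 162 compact regions were shorter and 11 longer, in a setting that called 10.5% of all shared regions. In the main fit the median difference of compact regions was −0.14, against −0.25 over all regions tested and −0.17 in wide shared regions. In 440 compact regions all 4 EGF-treated libraries covered less than all 4 vehicle libraries, and in 59 they covered more. These are 12.4% and 1.67% of compact regions, beside 15.8% and 1.94% of all shared regions. The direction depended on the scaling. After quantile normalization of the libraries the median difference over all regions tested was 0.04 and that of compact regions was 0.26. Of the compact regions 39 were called longer and 0 shorter, in a setting that called 10.9% of all regions tested. With quantile normalization over shared regions alone, 71 were called longer and 42 shorter, in a setting that called 8.18% of all shared regions. The median difference there was 0.09 in compact regions and 0.04 over all shared regions. The EGF-treated libraries then covered more than the vehicle ones in 365 compact regions and less in 88. No share over all shared regions is given, so these counts cannot be read as a trait of compact regions. The count of calls without normalization also rested on single libraries. It was 2 without knockdown replicate 2, 7 without knockdown replicate 1, and 171 without control replicate 1. It was between 10 and 20 when any of the 4 EGF-treated libraries was left out. Of all regions tested these settings called 4.77% and 5.77% without a knockdown replicate, 21.4% without control replicate 1, and 5.30% to 7.55% without an EGF-treated library.

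The 5 compact regions called longer with EGF are named in order of the size of the change. At chr6:128805515-128806871, covered length was 1288 and 1143 bp with EGF, against 221 and 401 in control, and 901 and 1357 with knockdown and EGF, against 624 and 230 with knockdown. The difference was 1.31 ± 0.29 on the log2 scale (SE; limma adjusted p = 0.0365), and the fold percentile rose with it by 48.1 points (adjusted p = 2.50e-04). The most variable region, chr4:106812055-106813509, changed by 1.17 (adjusted p = 0.0244), with no base covered in all libraries. At chr7:17203538-17205010 covered length was 1422 and 1421 bp with EGF, against 306 and 648 in control, and 1174 and 1296 with knockdown and EGF, against 1078 and 804 with knockdown, a difference of 0.82 (adjusted p = 0.0494). That value lies just inside the threshold. At chr11:121065031-121066435 the region widened but did not gain rank. Covered length was 1075 and 1172 bp with EGF, against 616 and 518 in control, and 1275 and 1190 with knockdown and EGF, against 632 and 669 with knockdown, and the 2 treatments did not overlap (difference 0.77, adjusted p = 0.0189). Its fold percentile was 67.5 and 53.2 with EGF, against 49.5 and 82.9 in control, and 76.2 and 76.7 with knockdown and EGF, against 87.3 and 86.7 with knockdown, a difference of −8.22 points that did not pass (adjusted p = 0.325). The last of the 5, chr18:38790788-38792079, widened by 0.62 (adjusted p = 0.0295) and also had one of the largest rises in rank, given below. Each of these 5 calls was lost when any one of 6 libraries was left out, the 2 controls excepted, and each remained longer with EGF under both quantile normalizations.

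Of the compact regions called shorter with EGF, the largest change was at chr4:119921189-119922448. Its covered length was 276 and 272 bp with EGF, against 876 and 1039 in control, and 315 and 200 with knockdown and EGF, against 951 and 1260 with knockdown. All EGF-treated libraries lay between 200 and 315 bp and all vehicle libraries at 876 bp or more, a difference of −1.40 ± 0.21 (SE; limma adjusted p = 0.0134). Its fold percentile did not follow, at 29.2 and 6.81 with EGF, against 6.06 and 2.61 in control, and 8.6 and 2.41 with knockdown and EGF, against 1.99 and 0.271 with knockdown (adjusted p = 0.155). At chr8:124999524-125000559 covered length was 234 and 201 bp with EGF, against 842 and 853 in control, and 238 and 304 with knockdown and EGF, against 931 and 863 with knockdown. The duplicates were close there, and the difference was −1.28 (adjusted p = 0.0147). The next 3 by size were chr16:30968692-30970028, at −1.18, chr17:31452088-31453563, at −1.18, and chr11:101564771-101566113, at −1.17, with adjusted p of 0.023, 0.0491 and 0.0353. Of these 3, the first also fell in rank, by 17.7 points (adjusted p = 0.013). All 5 kept their direction under quantile normalization over all regions tested and were no longer called there. The first of the 5 lost its call without 1 library, knockdown replicate 2, and the other 4 without 2 to 7 of the 8.

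One of the most variable regions, chr2:173562515-173563974, was called shorter with EGF but not lower in rank. Covered length was 749 and 421 bp with EGF, against 1015 and 1240 in control, and 351 and 447 with knockdown and EGF, against 1378 and 1460 with knockdown, a difference of −1.11 (adjusted p = 0.0203). Its fold percentile was 74.1 and 62.9 with EGF, against 76.4 and 81.9 in control, and 72.1 and 80.5 with knockdown and EGF, against 71.4 and 69.1 with knockdown, with the treatments overlapping and a difference of −2.33 points (adjusted p = 0.651).

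Knockdown of Arid1a changed the covered length of 0 compact regions in either direction by the same test. At an unadjusted p under 0.05 there were 237, and the smallest adjusted p was 0.0642. Over all regions tested 0.213% were called longer and 0.139% shorter with knockdown. The median difference of compact regions was 0.12, against 0.11 over all regions tested. In 183 compact regions the 4 Arid1a siRNA libraries covered more than the 4 others, and in 27 less, which is 5.18% and 0.764% beside 4.95% and 0.867% of all shared regions. Median covered length was 895.9 ± 104 bp with Arid1a siRNA and 807.25 ± 94.6 bp with non-targeting siRNA (SD, n = 4 each). The direction depended on the scaling here too. With quantile normalization over shared regions the median difference was −0.02 in compact regions and −0.01 over all shared regions. The Arid1a siRNA libraries then covered more than the others in 51 compact regions and less in 101. Without a share over all shared regions, these counts cannot be read as a trait of compact regions. Without control replicate 1 the median difference of compact regions was 0.06, against 0.03 over all regions tested. Without control replicate 2, 55 compact regions were called longer and 1 shorter, in a setting that called 10.4% of all regions tested. The smallest p belonged to chr11:80289681-80291104, which did not pass. Covered length there was 763 and 788 bp with knockdown and EGF, against 202 and 277 with EGF, and 1204 and 1284 with knockdown, against 618 and 654 in control, higher with Arid1a siRNA within each EGF state (difference 0.97, adjusted p = 0.0642). The next, chr16:13366531-13367972, had 1166 and 1416 bp with knockdown and EGF, against 311 and 248 with EGF, and 1338 and 830 with knockdown, against 666 and 741 in control (difference 1.06, adjusted p = 0.0702).

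The effect of EGF on covered length did not differ detectably with knockdown in any compact region. The interaction in limma called 0 compact regions and 0% of all regions tested, with 78 compact regions at an unadjusted p under 0.05 and a smallest adjusted p of 0.177. That smallest value was at chrX:73355997-73357417, where covered length was 1012 and 1127 bp with EGF, against 878 and 1262 in control, and 369 and 379 with knockdown and EGF, against 1347 and 1330 with knockdown. EGF-treated libraries were much shorter there with knockdown and near the control values without it. At chr3:109744916-109746375 the pattern was alike, with 1278 and 1394 bp with EGF, against 1041 and 1358 in control, and 249 and 383 with knockdown and EGF, against 996 and 1119 with knockdown (adjusted p = 0.198). Its sign turned when peaks with a −log10 q under 2 were dropped. Without control replicate 2 the interaction called 18 compact regions and 4.24% of all regions tested.

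Rank by fold differed between EGF-treated and vehicle libraries in 1469 compact regions. Covered length, fitted over the same 16607 shared regions, differed in 173. Of the 3536 compact regions, 721 (20.4%) ranked higher with EGF and 748 (21.2%) lower, by limma on the percentile over all 16607 shared regions at an adjusted p of at most 0.05. Over all shared regions 21.9% ranked higher and 21.8% lower, so the compact regions stood near the background. The part of list length in these calls was not tested. Ranks are relative, and rises and falls balance over all shared regions by construction. A region can therefore rise in rank where its acetylation did not change while that of other regions fell. The median absolute difference between 2 libraries that differed in EGF alone was 13 to 16 points over 8 such pairs, against 7.1 to 8.7 points between the 2 libraries of a group. For libraries that differed in siRNA alone it was 9.09 to 10.4 points. The median change of the regions called higher was 23.3 points, and that of regions called lower was −24.8 points. A change of at least 40 points was found upward in 64 compact regions and downward in 94. When shared regions were ranked by −log10 q in place of fold, 423 compact regions were called higher and 437 lower, in a setting that called 27.7% of all shared regions.

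All 4 EGF-treated libraries ranked a region above all 4 vehicle libraries in 531 compact regions (15.0%) and below them in 517 (14.6%). Over all shared regions these shares were 17% and 16.9%. Calls were least frequent at the bottom of the fold order. Of the 1169 compact regions with a mean percentile under 25, 15.1% were called higher and 13.8% lower, whereas of the 315 at 75 or above 28.6% were called higher and 23.2% lower. By width, the 203 compact regions under 750 bp had 20.7% called higher and 13.3% lower, and the 1631 widest had 20.6% and 23.2%. The order of the regions by mean percentile is itself taken from these ranks, so these shares are a description.

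**Figure D4:**
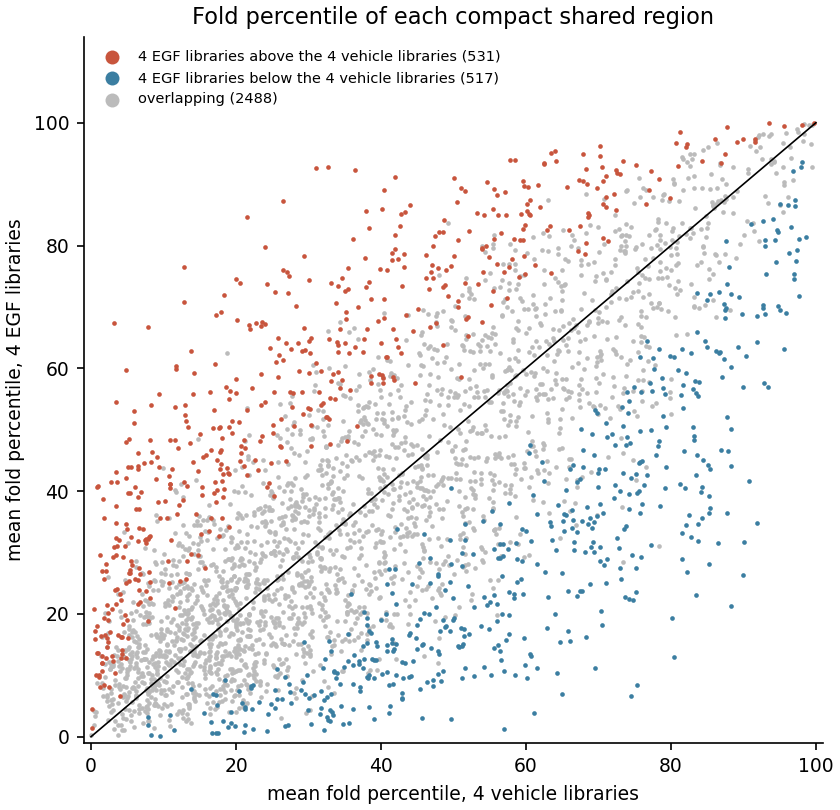
Mean fold percentile of each of the 3536 compact shared regions in the 4 EGF-treated libraries (vertical axis) and in the 4 vehicle libraries (horizontal axis), with the line of equality. Regions whose EGF-treated libraries all rank above (531) or all below (517) the vehicle libraries are coloured, and they occur over most of the range.

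The largest rise was at chr8:114515674-114516437, a region of 764 bp. Its fold was 4.64 and 6.82 with EGF, against 3.33 and 3.22 in control, and 7.97 and 6.76 with knockdown and EGF, against 4.02 and 3.38 with knockdown, and its percentile 36.6 and 76.5 with EGF, against 1.71 and 0.259 in control, and 83.9 and 72.5 with knockdown and EGF, against 9.64 and 1.22 with knockdown. EGF replicate 1 was the lowest of the treated libraries but still above every vehicle library. The mean percentile was 67.4 ± 21 with EGF and 3.21 ± 4.33 with vehicle (SD, n = 4 each), a difference of 64.2 ± 8.05 points (SE; limma adjusted p = 2.17e-04). The region covered 535 to 690 bp with EGF and 298 to 553 bp with vehicle, and this difference in length did not pass (adjusted p = 0.187).

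A short region of 395 bp at chr11:105893127-105893521 was second. Its percentile was 82.9 and 71.1 with EGF, against 1.84 and 10.1 in control, and 79 and 73.1 with knockdown and EGF, against 9.31 and 30.1 with knockdown, a difference of 63.7 points (adjusted p = 8.25e-05). It covered between 349 and 391 bp in 7 libraries and 204 bp in control replicate 2, so the rise in rank came without widening. The third, chr2:56975783-56976641, had folds of 9.26 and 10.6 with EGF, against 4.5 and 5.16 in control, and 6.91 and 6.6 with knockdown and EGF, against 3.63 and 4.38 with knockdown. Both EGF libraries without knockdown exceeded both with knockdown and EGF, and all 4 exceeded the vehicle libraries. The EGF difference in percentile was 63.1 points (adjusted p = 6.18e-05), and the knockdown difference of −25.7 points also passed (adjusted p = 0.0253).

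At chr8:49195055-49196200 the percentile was 96.9 and 95.9 with EGF, against 23.6 and 27.4 in control, and 90.4 and 87.3 with knockdown and EGF, against 35.3 and 38 with knockdown, with little spread within each side (difference 61.6 points, adjusted p = 6.18e-05). The last of the 5, chr18:38790788-38792079, is the region that also widened. Its percentile was 89.9 and 92.6 with EGF, against 23.7 and 32.1 in control, and 84.7 and 81.9 with knockdown and EGF, against 23.6 and 26.4 with knockdown, a difference of 60.8 points (adjusted p = 6.18e-05). Its covered length was 1057 and 1276 bp with EGF, against 649 and 616 in control, and 1168 and 1269 with knockdown and EGF, against 809 and 750 with knockdown, so both measures separated the treatments without overlap.

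The largest fall was at chr3:90294380-90295252, a region of 873 bp. Its fold was 3.23 and 3.61 with EGF, against 5.38 and 8.43 in control, and 3.68 and 4.02 with knockdown and EGF, against 8.97 and 7.87 with knockdown. Its mean percentile was 6.6 ± 6.67 with EGF and 74.5 ± 12.1 with vehicle (SD, n = 4 each), a difference of −67.9 ± 6.7 points (SE; limma adjusted p = 8.25e-05). At chr10:11063008-11064043 the percentile was 2.46 and 10.1 with EGF, against 86.8 and 83.4 in control, and 10.4 and 28.8 with knockdown and EGF, against 78.7 and 72.7 with knockdown, a difference of −67.5 points. At chr4:126920527-126921913 it was 2.76 and 12.8 with EGF, against 88.3 and 95.4 in control, and 25.3 and 44.1 with knockdown and EGF, against 85.5 and 84 with knockdown, a difference of −67 points. Here the EGF-treated libraries with knockdown ranked above those without it, while remaining below every vehicle library.

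Covered length did not follow the rank at that last region, with 1086 and 1086 bp with EGF, against 610 and 747 in control, and 1069 and 1108 with knockdown and EGF, against 1251 and 1119 with knockdown. The peak was longer with EGF than in control, although its rank was lower. At chr12:114214131-114215492 the percentile was 0.885 and 0.476 with EGF, against 59.9 and 69.7 in control, and 21.8 and 10.6 with knockdown and EGF, against 88.8 and 82.6 with knockdown, a difference of −66.8 points, and covered length fell short of the threshold (difference −0.89, adjusted p = 0.0647). The last of these 5, chr4:99381882-99383127, had percentiles of 19.1 and 23.7 with EGF, against 97.9 and 97.2 in control, and 31.4 and 31.2 with knockdown and EGF, against 75.6 and 88.9 with knockdown, a difference of −63.6 points. The adjusted p of the last 4 falls in rank lay between 6.18e-05 and 6.40e-05. All 10 leading rank changes were called, in the same direction, without any one library and in each other setting in which the region could be matched.

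**Figure D5:**
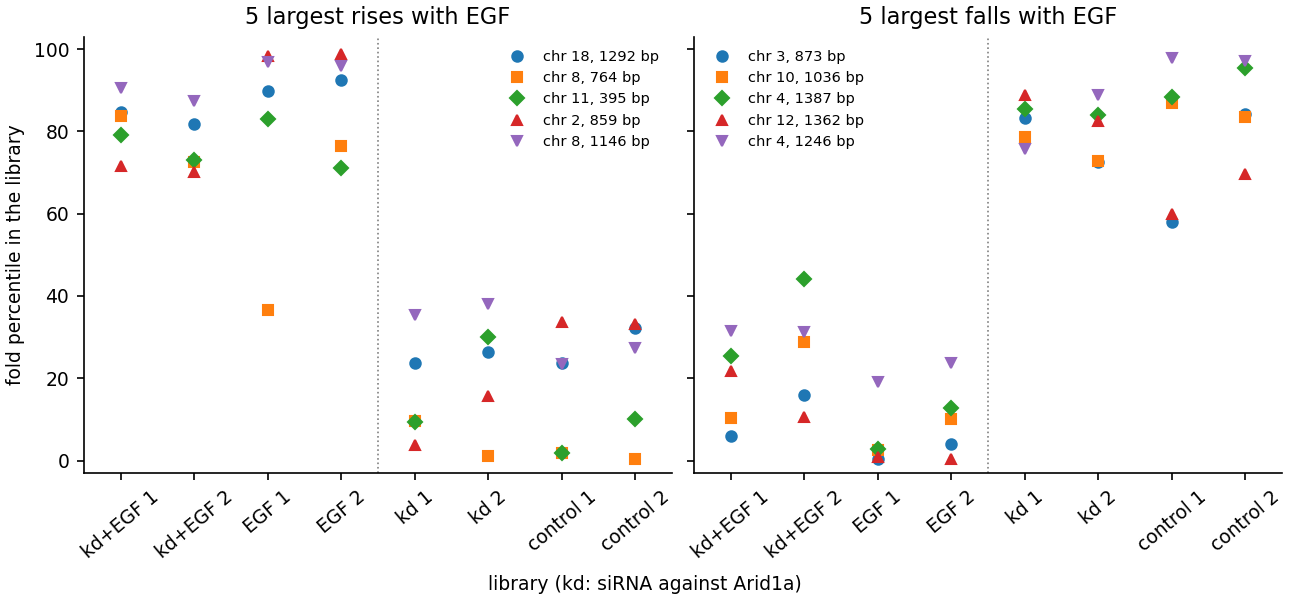
Fold percentile in each library (horizontal axis, kd for siRNA against Arid1a) of the 5 compact regions with the largest rise in rank with EGF (left) and the 5 with the largest fall (right). A dotted line parts EGF-treated from vehicle libraries, which do not overlap for any of the 10 regions.

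Width and rank moved together only loosely with EGF. The 2 differences had a Pearson correlation of 0.272 across the 3536 compact regions, a description over regions measured in the same libraries. Of the 84 regions called shorter, 35 were also called lower in rank and 6 higher. Of the 5 called longer, 4 were also called higher and 0 lower. The length calls come from the fit over 28146 regions and the rank calls from that over 16607. Both measures come from the same peak of a library. Whether the length of a peak enters its fold was not tested, so the 2 need not be separate measures. Joint counts over all shared regions are not given, so these cannot be read as a trait of compact regions. The median difference in covered length was −0.02 among regions called higher in rank and −0.23 among those called lower.

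With knockdown of Arid1a, 115 compact regions (3.25%) ranked higher and 71 (2.01%) lower. Over all shared regions 3.17% ranked higher and 3.31% lower. In 124 compact regions all 4 Arid1a siRNA libraries ranked above the 4 others, and in 78 below, or 3.51% and 2.21% beside 3.78% and 3.67% of all shared regions. These calls rested on every Arid1a siRNA library. The count of 186 was 0 without either replicate of knockdown with EGF, 0 without knockdown replicate 2 and 1 without knockdown replicate 1, and it was 78 without EGF replicate 1, 121 without EGF replicate 2 and 92 without control replicate 1. Of all shared regions, 0% to 0.0120% were called without an Arid1a siRNA library, and 2.22% to 3.29% without the other 3 libraries named. The count was also 30 when ranks were taken among compact regions alone, and 289 with normal scores of the ranks, which called 8.30% of all shared regions.

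The largest rise with knockdown was at chr14:79851181-79851940. Its fold was 6.65 and 6.7 with knockdown and EGF, against 4.22 and 4.43 with EGF, and 7.85 and 9.4 with knockdown, against 3.39 and 5.72 in control. All 4 Arid1a siRNA libraries had a higher fold than the 4 others. The mean percentile was 74.6 ± 7.81 with Arid1a siRNA and 23.9 ± 17.7 with non-targeting siRNA (SD, n = 4 each), a difference of 50.7 ± 8.55 points (SE; limma adjusted p = 0.0201). At chr17:17430689-17431857 the percentile was 72.4 and 56 with knockdown and EGF, against 11.3 and 8.8 with EGF, and 62.1 and 47 with knockdown, against 9.38 and 14.5 in control, a difference of 48.4 points (adjusted p = 0.0111). At chr19:6235078-6236554 it was 70.9 and 70.6 with knockdown and EGF, against 8.8 and 21.6 with EGF, and 61.3 and 79.6 with knockdown, against 29.7 and 31.1 in control, a difference of 47.8 points (adjusted p = 0.0111). Both regions separated the siRNAs without overlap in each EGF state.

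The other 2 of the 5 were chr7:25101363-25102207, which rose by 40.5 points (adjusted p = 0.0111), and chr2:28437829-28438990, which rose by 39.7 points (adjusted p = 0.0231). Covered length did not pass for knockdown at any of these 5, with adjusted p of at least 0.379.

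The largest fall with knockdown was at chr14:78782749-78784071, with percentiles of 31.4 and 27.3 with knockdown and EGF, against 70.3 and 77.5 with EGF, and 9.7 and 28 with knockdown, against 44.1 and 66.9 in control, a difference of −40.6 ± 6.77 points (SE; adjusted p = 0.0201). At chr6:54727296-54728598 the percentile was 11 and 2.54 with knockdown and EGF, against 48.6 and 47.8 with EGF, and 13.5 and 19.1 with knockdown, against 54.8 and 44.7 in control, a difference of −37.4 points (adjusted p = 0.0111). These 2 regions did not overlap between the siRNAs. At chr7:75893409-75894678 both factors lowered the rank. The percentile was 15.8 and 18.7 with knockdown and EGF, against 68.6 and 43.9 with EGF, and 52.1 and 51 with knockdown, against 80.5 and 80.9 in control, with differences of −34.1 points for knockdown (adjusted p = 0.0226) and −29.3 points for EGF (adjusted p = 0.00355). The last 2 were chr7:78849595-78851050, at −33.7 points, and chr2:74416250-74417401, at −33.2 points, with adjusted p of 0.0111 and 0.0159. Each of these 10 calls was lost when any one of the 4 Arid1a siRNA libraries was left out.

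No compact region passed for a difference of the EGF effect on rank between knockdown and intact cells. The interaction called 0 compact regions and 0% of shared regions, 370 compact regions had an unadjusted p under 0.05, and the smallest adjusted p was 0.440. It belonged to chr4:133125202-133126419, where the percentile was 25 and 16.5 with EGF, against 39.6 and 36 in control, and 57.6 and 61.1 with knockdown and EGF, against 8.07 and 15.5 with knockdown. EGF libraries ranked lower than controls there without knockdown and higher than knockdown libraries with it, so the directions were opposite, but this did not pass. The next, chr11:80022479-80023675, had 71.9 and 74 with EGF, against 97.4 and 91.4 in control, and 79.5 and 82.1 with knockdown and EGF, against 74.7 and 71.2 with knockdown (adjusted p = 0.479).

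Compact regions lay farther from other acetylated regions than wide ones did, but the choice bears on this. Peaks near one another can join into a union past the width limit. The distance therefore cannot be read as a trait of compact regions. The gap to the nearest union region had a median of 14805.5 bp for compact regions, 6832.5 bp for wide shared regions and 7575 bp for all remaining union regions. It was under 5 kb for 22.0% of compact regions and 42.4% of wide shared ones, and at least 50 kb for 17.9% and 8.56%. The nearest neighbour of a compact region was a region not shared by all libraries in 45.6%, a wide shared region in 37.0% and another compact region in 17.3%. The 633 isolated compact regions, at least 50 kb from any other, had a median percentile of 39.9, against 29.9 for the 779 within 5 kb of one. The sign of the EGF change in rank was the same as in the neighbour in 53.0% of the 394 compact regions with a shared nearest neighbour within 5 kb and in 53.6% of the 336 with one at least 50 kb away.

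Compact regions occurred on every numbered chromosome and on X, from 17.2% of the shared regions of chromosome 15 to 24.7% of those of chromosome 13. On chromosome X they were 78 of 354 shared regions, or 22.0%.

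The 2 regions just inside the width limit were each 1499 bp wide. At chr7:107854382-107855880 the percentile was 64.6 and 52.7 with EGF, against 74.5 and 80.8 in control, and 67.1 and 54.7 with knockdown and EGF, against 79.9 and 88.6 with knockdown, and at chr11:61113406-61114904 it was 67.6 and 51 with EGF, against 37.9 and 25.4 in control, and 43.3 and 51.9 with knockdown and EGF, against 19.5 and 38 with knockdown, so one ranked lower and the other higher with EGF (differences of −21.2 and 23.2 points). The 2 just outside were each 1500 bp wide. Their covered length was 223 to 1227 bp at chr1:134806600-134808099 and 625 to 1454 bp at chr5:135739588-135741087, and their mean percentiles were 8.07 and 35.6.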

How the data were processed

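H3K27ac peak lists of 8 libraries of 266-6 cells were used, 2 for each of 4 groups taken from the sample titles. The authors deposited 1 list of 9 columns per library, called per sample. The tools named in the submitters' processing notes are MACS2 2.1.1.20160309.0, deepTools 3.0.2, SAMtools and Bowtie2 2.3.4.2, with build mm9. Neither the use of an input nor the settings of the caller are stated. In each of the 8 lists the lowest −log10 q lay between 1.00 and 1.05, so all lists ended at a similar q. Each deposited peak carries a score, a −log10 p, a −log10 q and a fold, the ratio to the background estimated by the caller, and all are the authors' values. Fold was used to rank regions within a library, and −log10 p was not used. The score was used to cut the lists to the length of the shortest, 22030 peaks, for an alternative set of regions. No value of that set is given here. Depth is unknown, and deeper sequencing can give more and longer peaks.

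Covered length is the number of bases of a region under peaks of a library. The fold of a region is the highest of its peaks. It was ranked over the 16607 regions shared by all libraries. A common set keeps the ranks free of how many regions a list holds, but fold itself differed with list length, as given above. limma 3.58.1 (empirical Bayes with a trend, R 4.3.3) was fitted with 4 group means over 8 libraries, to log2(covered bp + 200) in 28146 regions and to the percentile in 16607. The pseudocount understates differences of short peaks. Adjusted p-values are Benjamini-Hochberg over all regions tested, with a threshold of 0.05. Percentiles have a bounded range, so a normal model is an approximation. Other steps used Python 3.11.15 with matplotlib 3.10.9, SciPy 1.17.1, pandas 2.3.3 and NumPy 2.4.6, and were tested on simulated data.

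The members, the rules and the lists were chosen with earlier results of these data known. Regions named are the 5 highest and 3 lowest by mean percentile, the 4 steadiest and 4 most variable in length, up to 5 per direction and up to 3 for the interaction among regions past the threshold by size of effect (else the 2 with the smallest p, said not to pass), and 2 on each side of the width limit. Alternatives were other pseudocounts, filters, rankings, normalizations, width limits and merging overlaps, stricter peaks, each library left out in turn and a replicate block. Planned gene lists, base composition and distances to genes need an mm9 annotation and were not analysed here.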

Additional observations from a re-analysis of the deposited data

How the results depend on the processing

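The 89 compact regions called for covered length with EGF became 52 when all union regions were tested, 173 when the test was limited to shared regions, 39 under quantile normalization (all of them longer) and 51 with peaks of a −log10 q of at least 2, and between 2 and 171 when one library was left out. For knockdown, the 0 calls became 2 with a pseudocount of 50 bp, 1 over shared regions, 2 with stricter peaks and 5 under quantile normalization over shared regions, a setting added after the data were seen, and 0 to 56 without one library. The interaction gave 0 to 18 calls for length and 0 to 1 for rank without one library. Rank calls for EGF went from 1469 (with 43.7% of all shared regions called) to 860 (27.7%) when −log10 q set the ranks. They stayed between 1161 and 1383 with a library left out (34.8% to 41.0%). Those for knockdown, 186 in all (6.47%), were 289 with normal scores (8.30%) and 30 when ranked among compact regions alone (0.848% of these). They were 118 with stricter peaks, and 0 to 201 with a library left out. The regions whose EGF-treated libraries did not overlap the vehicle ones numbered 499 for length (582 to 1043 without one library) and 1048 for rank (605 by −log10 q). For Arid1a siRNA they numbered 210 for length (139 with stricter peaks, 283 to 503 without one library) and 202 for rank (133, and 286 to 346). Shares beside all shared regions are given above for the main counts and not for the others. With a library left out fewer values have to separate, so those counts cannot be set against the main ones. The compact set had 747 regions at a limit of 1000 bp and 7042 at 2000 bp, and 3728 to 3971 without one library. Of 572 values of named regions under alternatives, 451 kept direction and side of the threshold, 113 lost the call, 7 gained it and 1 reversed, the length interaction at chr3:109744916-109746375 (0.73 with stricter peaks, adjusted p = 0.826, against −1.44, adjusted p = 0.198). The cause of these changes was not tested, except that other limits and fewer libraries change the regions or samples used.

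With a replicate block, 32 compact regions were called for length with EGF, in a fit that called 10.5% of all regions tested. For rank, 1491 were called with EGF and 173 with knockdown, beside 43.8% and 5.71% of all shared regions. Over regions, the replicate differences of the groups were nearly uncorrelated with one another (−0.0113 to 0.0386). Such a correlation cannot show a shift of a whole library. Replicate 2 had more peaks and a longer median covered length in compact regions than replicate 1 in all 4 groups. What samples with the same replicate number share was not tested. Unknown read depth limits how far a missing peak or a short one can be read.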
